A study of Homo sapiens with 12 samples.

Results

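The comparison of 10 min of insulin with 0 min asks which transcripts of HepG2 cells move first. The 2 RNA-seq libraries made 10 min after insulin were set against the 2 made at 0 min, 4 of the 12 samples of the series. Of 26364 named genes, 13852 had enough reads to be tested, and 19 of these (0.137%) differed, 13 lower and 6 higher at 10 min. The genes that fell included genes tied to the ERK kinase pathway (DUSP6, SPRY4, IER3), targets of FOXO factors (IGFBP1, C10orf10) and targets of NF-κB (CCL20, BIRC3), whereas ARRDC3, MYLIP, SMAD7 and ID2 were among those that rose.

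HepG2 is an established line from a human liver cancer that keeps many functions of hepatocytes and responds to insulin. The series followed these cells at 0, 5, 10, 30 and 240 min of insulin with 2 replicates each, and added a chromatin immunoprecipitation library of the insulin receptor (IR) with its input. According to the labels all cells were grown in EMEM with serum and then kept in EMEM for 16 h, so this step was shared by the 0 and 10 min groups, which differed in the time given in the sample titles. The treatment text of every RNA library, those at 0 min included, reads 3 nM insulin and 5 min. The times used below are those of the titles, and the dose of the time course and what the 0 min cells received cannot be read from the labels with certainty. The RNA-seq was a single experiment on one cell line, so the p-values measure the spread between these samples.

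Insulin binds its receptor, a tyrosine kinase, and signals through the PI3K-AKT and RAS-ERK branches. AKT phosphorylates FOXO transcription factors and moves them out of the nucleus, which in liver cells shuts off genes such as IGFBP1. ERK activity is held in check by feedback inhibitors whose short-lived messages are renewed by transcription, and many such messages carry AU-rich elements, stretches of the 3′ untranslated region (3′ UTR) that recruit the decay machinery.

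Levels are given as CPM, counts scaled to the number of reads on genes in each library after TMM normalization, which sets the bulk of genes level between libraries. Changes are log2 fold changes with their standard error (SE) from a model of all 10 RNA-seq libraries. A gene was called when the p-value of edgeR's quasi-likelihood test, adjusted by Benjamini-Hochberg over the 13852 genes, was under 0.05. Each library held 18347109 to 45005769 reads on genes, 21692103 and 45005769 at 0 min and 26276180 and 23441697 at 10 min. The replicates at each time varied beyond counting noise. All 17 hepatocyte markers were counted in every library, with ALB and APOB among the highest. Of the 15 markers of other cells PTPRC had 0 reads and CD3E, KDR and COL1A2 had 1 read each over the 10 libraries, and 7 had enough reads to be tested. CD68 had 758 to 1782 reads in each library, PDGFRB 162 to 611, PECAM1 41 to 114, COL1A1 18 to 57 and VWF 9 to 47, while LYZ was abundant, at 5384 and 5539 CPM in the 10 min libraries.

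The changes at 10 min were small, and more genes fell than rose. All 19 called genes changed by less than 1 on the log2 scale. The 13 lower genes fell by 21.6% to 45.4%, and the 6 higher genes rose by 32% to 62.4%. Lower calls made up 0.0938% of the genes tested and higher calls 0.0433%, and 710 genes (5.13%) had an unadjusted p under 0.05. Both 10 min values lay outside both 0 min values in each of the 19 genes, a separation that 37.2% of all genes tested showed. The reads behind a called gene in a 0 or 10 min library ranged from 154 for SMAD7 to 15925 for ENC1. The last genes inside the threshold were BIRC3 (adjusted p = 0.0208) and ID2 (adjusted p = 0.0431) by edgeR's quasi-likelihood test, and the first outside it were ZSWIM3 and HS3ST3B1 (both 0.0877).

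**Figure D1:**
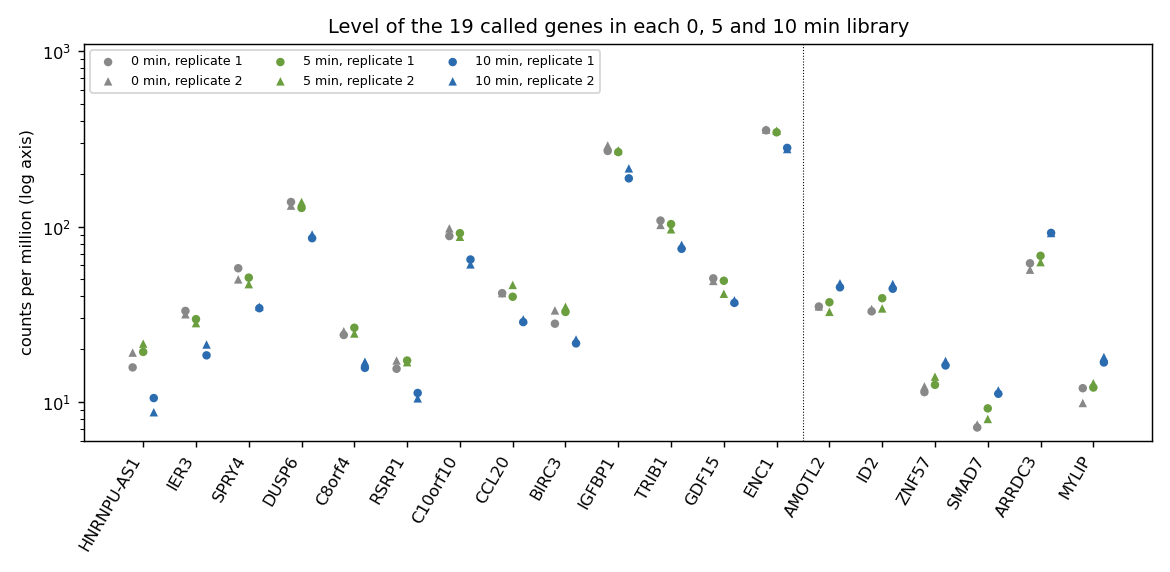
Level of each of the 19 called genes in CPM (log axis) in the 0, 5 and 10 min libraries, 1 point per library with the replicate given by the symbol; the dotted line separates the 13 lower from the 6 higher genes. The 10 min points lie below both the 0 and the 5 min points of the genes on the left and above both for the genes on the right.

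The calls on the rises depended on what the libraries were scaled to. ERCC spike-in RNA took 1.59% of the counts in both 0 min libraries, 1.73% in 10 min replicate 1 and 2.36% in 10 min replicate 2. Scaled to these spike-ins in place of TMM, the median gene fell by 0.33 on the log2 scale, and 20 genes were called, 20 lower and 0 higher, against 13 and 6. Of the 13 genes that fell, 11 were called again. All 6 rises kept a positive value, from 0.07 for AMOTL2 to 0.35 for MYLIP on the log2 scale, and lost the call. Left to 10 min replicate 2 alone, with this scaling, AMOTL2, ID2 and ZNF57 turned negative (-0.12, -0.070 and -0.034). Changes are therefore given relative to the bulk of the transcriptome. In bulk RNA, fewer cells and less RNA per cell cannot be told apart, and the part of either in the spike-in difference was not tested.

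Most of the genes that fell, though not all, shared features that the test had not used. Of the 13, 12 had an annotated transcript and a 3′ UTR. The heptamer TATTTAT, a core letter pattern of AU-rich elements, stood in the 3′ UTR of 8 of these 12 (66.7%), in 3 of the 6 genes that rose (50%) and in 34.9% of 12475 genes with a 3′ UTR. The pentamer ATTTA occurred at a median of 4.9 per kb of 3′ UTR in the genes that fell, 1.99 in those that rose and 1.67 in all. The median 3′ UTR lengths were close, at 1360.5, 1508 and 1295 nucleotides. DUSP6, TRIB1 and C10orf10 had 0.495, 0.518 and 0.791 pentamers per kb, below the median of all genes. The other falling genes with a 3′ UTR lay above it, from 2.12 for SPRY4 to 20.7 for GDF15, whose 3′ UTR has 241 nucleotides. Genes that fell were also compact, with a median span of 5.19 kb and 3 exons, against 18.3 kb and 5.5 exons for those that rose and 26.5 kb and 9 exons overall. A span under 10 kb was found in 9 of the 12 (75%) and in 24.1% of all annotated genes. Of a list of 31 long-lived housekeeping messages, 71% had such a span as well, but 9.68% carried the heptamer. A letter match is a description and not a shown decay element.

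The windows around one heptamer of 9 genes are shown because 8 of the 12 falling genes with a 3′ UTR held it, as did 3 of the 6 that rose. Capitals mark the TATTTAT at the centre of each window, sequences are in the sense direction and coordinates are on GRCh37. In order, the windows lie at chr6:30711430-30711458 (minus strand, IER3), chr5:141691962-141691990 (minus, SPRY4), chr2:228681999-228682027 (plus, CCL20), chr7:45932729-45932757 (plus, IGFBP1), chr19:18499847-18499875 (plus, GDF15) and chr5:73925223-73925251 (minus, ENC1). The last 3 belong to genes that rose and lie at chr2:8824005-8824033 (plus, ID2), chr18:46446408-46446436 (minus, SMAD7) and chr6:16148361-16148389 (plus, MYLIP). The IER3 window holds a further copy, left in lower case. Windows of the other two falling genes with the heptamer are not shown, and DUSP6, TRIB1, RSRP1 and C10orf10 did not have it.
IER3: ctcctaattaaTATTTATatgtatttatg
SPRY4: gtaaccataggTATTTATtgattggagga
CCL20: gtattttatgtTATTTATagctgtaggtt
IGFBP1: agtatatagtaTATTTATactctagaaca
GDF15: ccaaacagctgTATTTATataagtctgtt
ENC1: atgttcttttcTATTTATaagtgacttta
ID2: gtgatattcgtTATTTATgaaaaagactt
SMAD7: ataagcatcatTATTTATgtattgtgcaa
MYLIP: attccaagaggTATTTATtttttcacttg

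**Figure D2:**
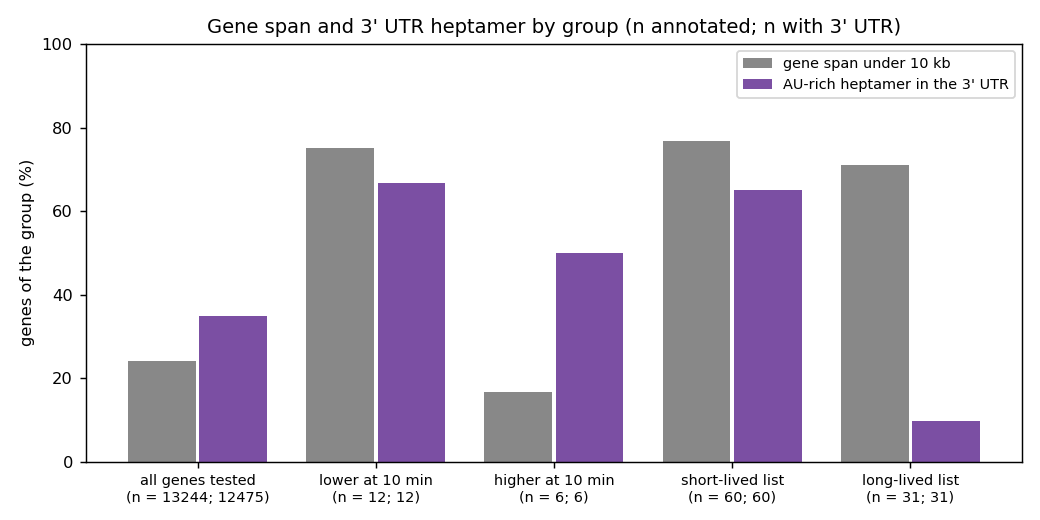
Share of genes (%) with a gene span under 10 kb (grey) and with TATTTAT in the 3′ UTR (purple) among all genes tested, the genes lower and higher at 10 min, and the lists of short-lived and long-lived messages; the numbers below each group are genes with an annotation and with a 3′ UTR. The genes that fell had shares of 75% and 66.7% against 76.7% and 65% in the short-lived list, while the long-lived list shares only the short span. IER3, SPRY4, DUSP6 and TRIB1 belong to both of the first groups, and the lists were chosen with earlier results of these data known. The likeness is therefore partly built in.

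Genes of the ERK feedback list gave 3 of the 13 falls, the inhibitors DUSP6 and SPRY4 and the immediate early gene IER3. DUSP6, on chromosome 12 (89741602 to 89746636, minus strand, hg19), encodes a phosphatase that inactivates ERK in the cytoplasm. Its level was 138 and 132 CPM at 0 min and 85.8 and 90.1 CPM at 10 min, so that the groups stood well apart, and it fell by 0.62 ± 0.05 (SE, n = 2 per group) on the log2 scale, or by 34.7% (adjusted p = 3.9e-06, edgeR's quasi-likelihood test). SPRY4, on chromosome 5 (141689992 to 141704620, minus strand), encodes a Sprouty protein that blocks signalling from receptor tyrosine kinases to RAS and ERK. It went from 57.8 and 50.0 CPM to 34.2 and 34.9 CPM and fell by 0.63 ± 0.07 (adjusted p = 0.00015). IER3, on chromosome 6 (30710976 to 30712327, minus strand), encodes a protein that interacts with ERK and affects cell survival. It went from 33.0 and 31.6 CPM to 18.4 and 21.2 CPM and fell by 0.70 ± 0.08 (adjusted p = 0.00015). These 3 genes were called whichever of the 4 libraries was left out.

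Across the 22 tested genes of the ERK feedback list, 3 were called lower and 0 higher. This list and those that follow were chosen with earlier results of these data known. Of the list, 18 had a negative value, with a median of -0.08 on the log2 scale against 0.00 for all genes tested, and 5 (22.7%) had an unadjusted p under 0.05 in the lower direction, against 3.02% of all genes. The other 2 were DUSP5, a nuclear ERK phosphatase, at -0.57, and the receptor EPHA2 at -0.24. The immediate early genes are transcription factors and other genes that growth signals induce within minutes. Of 24 tested, IER3 was called lower and 0 were called higher by edgeR, as by DESeq2. An unadjusted p under 0.05 was found for 8 lower (33.3%) and 1 higher (4.17%), with a list median of -0.14. FOS stood at 2.55 and 1.14 CPM at 0 min and 1.41 and 2.26 CPM at 10 min, which overlap, and MYC changed by 0.06 (adjusted p = 0.98, edgeR's quasi-likelihood test).

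EGR1, a zinc finger factor that growth signals induce through ERK, differed between times in both directions. It stood at 25.8 and 20.5 CPM at 0 min, 14.5 and 15.4 CPM at 10 min and 47.4 and 34.3 CPM at 30 min, so that the 10 min values were below both others. Its change at 10 min, -0.61 ± 0.13 on the log2 scale, did not pass the test over 10 libraries (adjusted p = 0.11) and passed in a model of the 4 libraries at 0 and 10 min alone (adjusted p = 0.0062, edgeR's quasi-likelihood test in both). It was called in 4 of 13 alternatives and in none of the 4 fits that left out a library, where the change ranged from -0.46 without 0 min replicate 1 to -0.79 without 0 min replicate 2.

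Genes of a list of targets of FOXO factors gave 3 further falls. IGFBP1, on chromosome 7 (45927959 to 45933267, plus strand), encodes a secreted protein that binds insulin-like growth factors. It had 270 and 290 CPM at 0 min and 188 and 215 CPM at 10 min and fell by 0.48 ± 0.06 on the log2 scale (adjusted p = 0.00027, edgeR's quasi-likelihood test). C10orf10, also called DEPP1, on chromosome 10 (45471709 to 45474330, minus strand), is induced by FOXO during fasting. It went from 88.3 and 97.6 CPM to 64.9 and 60.8 CPM and fell by 0.57 ± 0.06 (adjusted p = 0.00015). At 240 min both were far lower, at 36.6 and 39.8 CPM for IGFBP1 and 7.27 and 7.52 CPM for C10orf10. TRIB1, a pseudokinase that targets C/EBP factors for degradation, was on the same list and went from 108 and 102 CPM to 74.7 and 78.6 CPM, a fall of 0.45 ± 0.06 (adjusted p = 0.00027). TRIB1 stood at 122 and 126 CPM at 240 min, above both 0 min values.

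Across the FOXO list, 3 of 26 tested genes were called lower and 0 higher, and the median was -0.01. An unadjusted p under 0.05 was found for 5 lower (19.2%) and 2 higher (7.69%), against 3.02% and 2.1% of all genes. BCL6, a repressor, and PPARGC1A, a coactivator of gluconeogenic genes, had values of -0.23 and -0.19 with an unadjusted p under 0.05, while CITED2, at 0.26, and IRS2, an adaptor of the receptor, at 0.47, had one on the higher side. IRS2 had 1.59 to 1.95 CPM at 0 min and 2.26 and 2.55 CPM at 10 min, so its value rests on few reads. Of 8 gluconeogenic genes 0 were called by edgeR, DESeq2 or limma and 1 (12.5%, lower) had an unadjusted p under 0.05 in edgeR, with PCK1 at 0.03 and G6PC at -0.08. The same held for 14 lipogenic genes, with 0 and 1 (7.14%, higher), FASN standing at 0.04 and SREBF1 at 0.09. Of 43 genes of the insulin pathway itself 0 were called by any of the 3 tools and 1 (IRS2, higher, 2.33%) had an unadjusted p under 0.05.

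Chemokine and survival genes that NF-κB controls formed a further group. CCL20, on chromosome 2 (228678558 to 228682280, plus strand), encodes a chemokine that attracts cells bearing CCR6. It was even at 0 min, at 41.7 and 41.7 CPM, and stood at 28.5 and 29.5 CPM at 10 min, a fall of 0.52 ± 0.08 (adjusted p = 0.0039, edgeR's quasi-likelihood test). BIRC3, on chromosome 11 (102188181 to 102210135, plus strand), encodes a ubiquitin ligase of TNF receptor signalling that protects cells from death. It went from 27.9 and 33.2 CPM to 21.6 and 22.7 CPM and fell by 0.48 ± 0.09 (adjusted p = 0.021). BIRC3 was called without 0 min replicate 1 and not without 0 min replicate 2 (adjusted p = 0.81), 10 min replicate 1 (0.50) or 10 min replicate 2 (0.17), and CCL20 likewise only without 0 min replicate 1, with 0.077, 0.16 and 0.059 in the other fits of edgeR's quasi-likelihood test. Of the 17 tested genes of this list 2 were called, both lower. A total of 7 (41.2%) had an unadjusted p under 0.05, each of them lower, against 3.02% of all genes, and the list median was -0.08. The other 5 were CXCL8 at -0.70, IRF1 at -0.30, NFKBIE and NFKB2 at -0.26 each and ICAM1 at -0.20.

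The promoters of CCL20 and BIRC3 are shown because both genes fell and both hold a κB site, the letter pattern that NF-κB binds, near their start. RefSeq promoters of 300 bases were at hand for 13 of the 19 genes. A κB pattern stood in 4 of the 7 promoters of genes that fell (RSRP1, CCL20, BIRC3 and GDF15), in 2 of the 6 of genes that rose (ID2, MYLIP) and in 12.8% of 10855 promoters on either strand. The TATA box letters TATAAA stood in 3 of the 7 (C10orf10, CCL20, GDF15), in 0 of the 6 and in 6.29% of all. Other patterns were searched as well. ETS sites (18.3% of all), insulin response sequences (3.53%) and cAMP response elements (5.17%) stood in 0 of the 7 and 0 of the 6. The same held for SMAD palindromes (1.17%) and CArG boxes (1.02%). GC sites of BMP SMADs stood in 2 of the 7, 2 of the 6 and 29% of all. The core site of the aryl hydrocarbon receptor stood in 4 of the 7, 1 of the 6 and 48.6% of all. In the sequences, on GRCh38.p14 and in the sense direction, capitals mark κB patterns and, in CCL20, also TATAAA. BIRC3 lies at chr11:102317234-102317533 (plus) and CCL20 at chr2:227813592-227813891 (plus).
BIRC3: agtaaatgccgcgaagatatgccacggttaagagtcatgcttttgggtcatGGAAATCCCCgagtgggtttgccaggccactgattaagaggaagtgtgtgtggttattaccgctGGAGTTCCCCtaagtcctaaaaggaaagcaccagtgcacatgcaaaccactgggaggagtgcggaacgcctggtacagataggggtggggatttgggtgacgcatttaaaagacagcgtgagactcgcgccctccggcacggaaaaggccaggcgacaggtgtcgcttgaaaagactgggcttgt
CCL20: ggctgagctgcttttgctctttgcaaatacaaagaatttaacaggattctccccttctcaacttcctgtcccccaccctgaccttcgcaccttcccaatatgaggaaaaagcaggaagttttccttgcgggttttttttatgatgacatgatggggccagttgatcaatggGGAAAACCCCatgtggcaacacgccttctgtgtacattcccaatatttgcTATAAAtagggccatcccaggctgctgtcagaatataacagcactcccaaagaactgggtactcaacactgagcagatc

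Of the other genes that fell, GDF15 and ENC1 code for proteins of known function. GDF15, on chromosome 19 (18496968 to 18499986, plus strand), encodes a stress-induced hormone that acts on the brain to lower food intake. It went from 50.6 and 49.0 CPM to 36.7 and 37.9 CPM and fell by 0.41 ± 0.07 on the log2 scale (adjusted p = 0.018, edgeR's quasi-likelihood test), and was called in none of the 4 fits that left out a library (adjusted p from 0.13 to 0.44). ENC1, on chromosome 5 (73923231 to 73937249, minus strand), encodes an actin-binding kelch protein. It was the most abundant of the 19, at 354 and 357 CPM against 281 and 277 CPM, and fell by 0.35 ± 0.05 (adjusted p = 0.00074), with an adjusted p of 0.055 without 10 min replicate 2.

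The roles of the remaining falling genes are less well defined. C8orf4, on chromosome 8 (40010987 to 40012827, plus strand), a small regulator of Wnt signalling also called TCIM, went from 24.1 and 25.3 CPM to 15.6 and 16.9 CPM, a fall of 0.61 ± 0.09 (adjusted p = 0.0031). RSRP1, on chromosome 1 (25568740 to 25573985, minus strand), a protein rich in arginine and serine, went from 15.4 and 17.2 CPM to 11.2 and 10.5 CPM, a fall of 0.60 ± 0.09 (adjusted p = 0.0044, edgeR's quasi-likelihood test for both). The adjusted p without 10 min replicate 1 was 0.16 for C8orf4 and 0.062 for RSRP1, and without 0 min replicate 2 it was 0.11 and 0.30. RSRP1 also lost the call without 10 min replicate 2 (0.17). Among 22 tested genes of SR proteins and CLK kinases, which act in splicing, RSRP1 was the only one called, and SRSF6 at 0.19 and SRSF3 at 0.10 had an unadjusted p under 0.05 in the other direction.

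HNRNPU-AS1 had the largest change of the 19, from 15.7 and 19.1 CPM to 10.5 and 8.73 CPM, a fall of 0.87 ± 0.12 (adjusted p = 0.00074, edgeR's quasi-likelihood test). Despite the name, the deposited coordinates place it on chromosome 1 at 245003940 to 245010243 on the minus strand, the same strand as HNRNPU (245013602 to 245027827), and RefSeq now lists the symbol under HNRNPU. HNRNPU itself, a nuclear RNA-binding protein, stood at 867 and 860 CPM at 0 min and 866 and 869 CPM at 10 min (0.01 on the log2 scale, adjusted p = 1.0), so the fall was seen in the reads of the downstream segment and not in those of the main gene. Without 0 min replicate 2 the adjusted p was 0.077, and without 10 min replicate 2 it was 0.059. Antisense RNAs by symbol, 336 tested, had 1 call, this one.

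Among the genes that rose, ARRDC3 had the smallest p-value. It lies on chromosome 5 (90664541 to 90679149, minus strand) and encodes an alpha-arrestin, an adaptor that directs membrane receptors to ubiquitin ligases. It went from 61.7 and 56.8 CPM at 0 min to 92 and 91.9 CPM at 10 min, with the groups far apart, and rose by 0.64 ± 0.06 on the log2 scale, or 55.9% (adjusted p = 3.9e-06, edgeR's quasi-likelihood test), in every fit that left out a library. Of 5 alpha-arrestins tested it was the only one called. ARRDC4, at 0.18, had an unadjusted p under 0.05.

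SMAD7 and ID2, both tied to BMP and TGF-β signalling, were 2 of the 6 rises. SMAD7, on chromosome 18 (46446223 to 46477081, minus strand), encodes the inhibitory SMAD that blocks the TGF-β receptors. It went from 7.14 and 7.43 CPM to 11.1 and 11.6 CPM, a rise of 0.63 ± 0.10 (adjusted p = 0.0068). ID2, on chromosome 2 (8822113 to 8824583, plus strand), encodes a helix-loop-helix protein that holds back differentiation factors and is a classical BMP target. It went from 32.8 and 33.9 CPM to 44.2 and 47.0 CPM, a rise of 0.45 ± 0.09 (adjusted p = 0.043, edgeR's quasi-likelihood test for both). Both lost the call whichever library was left out, with an adjusted p from 0.070 to 0.17 for SMAD7 and from 0.19 to 0.83 for ID2. Of 15 tested genes of the BMP and TGF-β list 2 were called, both higher, 4 (26.7%) had an unadjusted p under 0.05 in that direction against 2.1% of all genes, and the median was 0.09. The other 2 were ID1 at 0.44, from 18.5 and 22.7 CPM to 28.9 and 28.0 CPM (adjusted p = 0.094), and KLF10 at 0.23.

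MYLIP, AMOTL2 and ZNF57 completed the rises. MYLIP, on chromosome 6 (16129317 to 16148478, plus strand), encodes the ubiquitin ligase IDOL, which degrades the LDL receptor. It went from 12.0 and 9.85 CPM to 16.8 and 18 CPM, and its rise of 0.70 ± 0.10 was the largest (adjusted p = 0.0017). AMOTL2, on chromosome 3 (134074187 to 134094259, minus strand), encodes an angiomotin that restrains YAP. It went from 35.0 and 35.0 CPM to 45.0 and 47.5 CPM, a rise of 0.40 ± 0.06 (adjusted p = 0.0044). ZNF57, a zinc finger gene on chromosome 19 (2900896 to 2918474, plus strand), went from 11.4 and 12.3 CPM to 16.1 and 17.1 CPM, a rise of 0.48 ± 0.09 (adjusted p = 0.021, edgeR's quasi-likelihood test for all 3). MYLIP and AMOTL2 lost the call without 0 min replicate 2 (adjusted p = 0.18 and 0.11) and without 10 min replicate 2 (0.059 and 0.17), and ZNF57 in all 4 such fits (0.13 to 0.54). Of 445 ZNF genes tested, ZNF57 was the only one called, a share of 0.225% against 0.0433% of all genes called higher. The median of the family was -0.04, and both 10 min values lay below both 0 min values in 29.7% of it, against 19.1% of all genes.

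**Figure D3:**
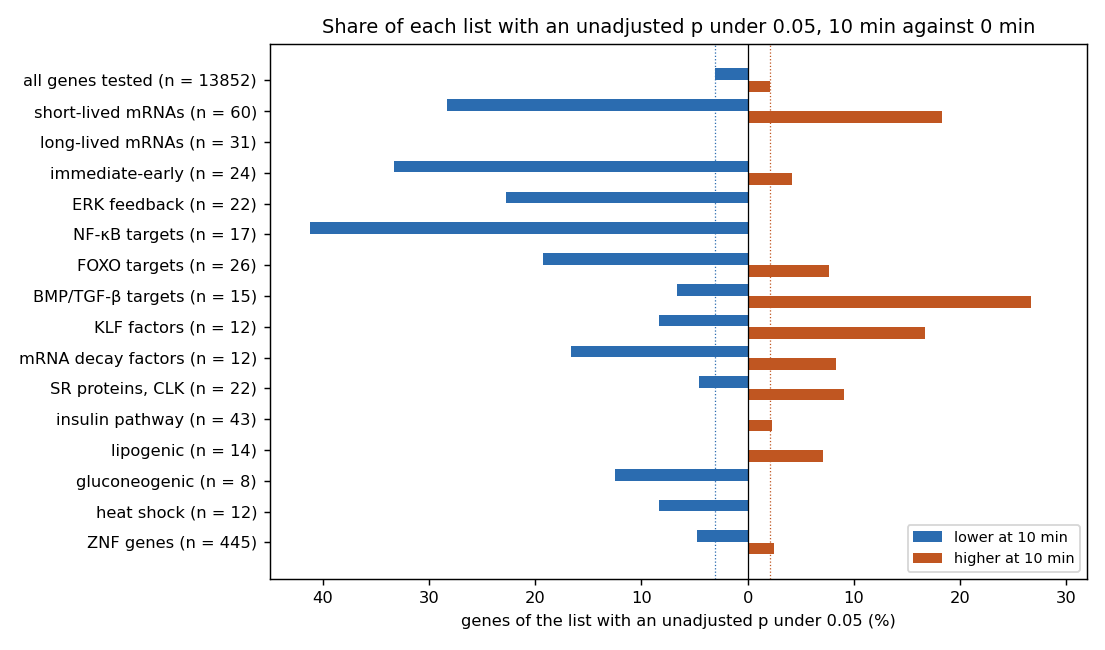
Share of the tested genes of the lists drawn (%) with an unadjusted p under 0.05 at 10 min against 0 min. Lower is to the left in blue and higher to the right in orange, with the shares over all 13852 genes as dotted lines (3.02% and 2.1%). Lists not drawn, with shares lower and higher, are hepatocyte markers (23.5% and 0%), markers of other cells (28.6% and 0%) and alpha-arrestins (0% and 40%). Targets of the aryl hydrocarbon receptor (0% and 14.3%) and antisense RNAs (2.08% each) are not drawn either. The bars of the NF-κB and ERK feedback lists lie on the lower side, that of the BMP and TGF-β list mostly on the higher side, those of the short-lived messages on both, and the long-lived messages have none.

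Short-lived messages moved in both directions. Of 60 tested genes of a list of unstable messages, 4 were called lower (IER3, SPRY4, DUSP6, TRIB1) and 3 higher (ID2, SMAD7, ARRDC3). Unadjusted p-values under 0.05 were found for 17 lower (28.3%) and 11 higher (18.3%), against 3.02% and 2.1% of all genes, and the list median was -0.02. The list was chosen with earlier results of these data known, so these shares are not independent of the calls. Of 31 tested long-lived messages 0 were called by edgeR, DESeq2 or limma and 0 had an unadjusted p under 0.05 in any of these. Other members of the unstable list with low values were KLF6 at -0.27, the survival factor MCL1 at -0.22, from 328 and 323 CPM to 274 and 287 CPM, and JUN at -0.20. ZFP36L2, which itself binds AU-rich elements, stood at 0.17. In all, 7 of the 19 called genes are thus on this list, and the other 12 are not. The lists of KLF factors (12 tested), mRNA decay factors (12), heat shock genes (12) and targets of the aryl hydrocarbon receptor (7) each had 0 calls by edgeR, DESeq2 or limma in the fits of all 10 libraries. In edgeR 3, 3, 1 and 1 of their genes had an unadjusted p under 0.05. The shares lower and higher were 8.33% and 16.7% for KLF factors and 16.7% and 8.33% for decay factors. For heat shock genes they were 8.33% and 0%, and for the receptor targets 0% and 14.3%, against 3.02% and 2.1% of all genes. In a model of the 4 libraries at 0 and 10 min alone KLF6 was called lower (-0.26, adjusted p = 0.0073, edgeR's quasi-likelihood test). Of the 17 hepatocyte markers 0 were called by these tools in the fits of 10 libraries. In edgeR 4 (23.5%) had an unadjusted p under 0.05, each lower (FGA, AFP, FGG, APOA2), against 3.02% of all genes. In the model of 4 libraries AFP was called lower (-0.27, adjusted p = 0.0096, edgeR's quasi-likelihood test). Both 10 min values lay below both 0 min values in 10 of the 17 markers (58.8%), against 19.1% of all genes, and the list median was -0.11. Of the 7 tested markers of other cells 0 were called by edgeR and 2 (28.6%) had an unadjusted p under 0.05, both lower, and LYZ stood at -0.17. Their part in the results was not tested.

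The 5 min libraries gave a second reference that does not use the 0 min libraries. Against 5 min, 36 genes (0.26%) were called, 33 lower (0.238%) and 3 higher (0.0217%). The 19 genes had the same direction in all 19 cases, and 14 were called, 12 of the 13 that fell and 2 of the 6 that rose (ARRDC3 and AMOTL2). Both 10 min values lay outside both 5 min values in all 19, as they did in 47% of all genes tested. DUSP6, at 128 and 138 CPM at 5 min, differed by -0.59 ± 0.05 (adjusted p = 1.0e-05), and ARRDC3, at 68.1 and 62.7 CPM at 5 min, by 0.49 ± 0.06 (adjusted p = 0.00023, edgeR's quasi-likelihood test for both). GDF15 was the falling gene not called, at -0.28 ± 0.08 (adjusted p = 0.13), and MYLIP just missed the threshold, at 0.49 ± 0.10 (adjusted p = 0.050). Both comparisons use the same 10 min libraries, and a deviation of these libraries would enter both. Between 5 and 0 min edgeR called 0 genes (0%), with 1976 at an unadjusted p under 0.05, and DESeq2 and limma called 1 gene each. The number called against 5 min was 11 without 5 min replicate 2, 76 without 5 min replicate 1, 8 without 10 min replicate 1 and 15 without 10 min replicate 2.

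**Figure D4:**
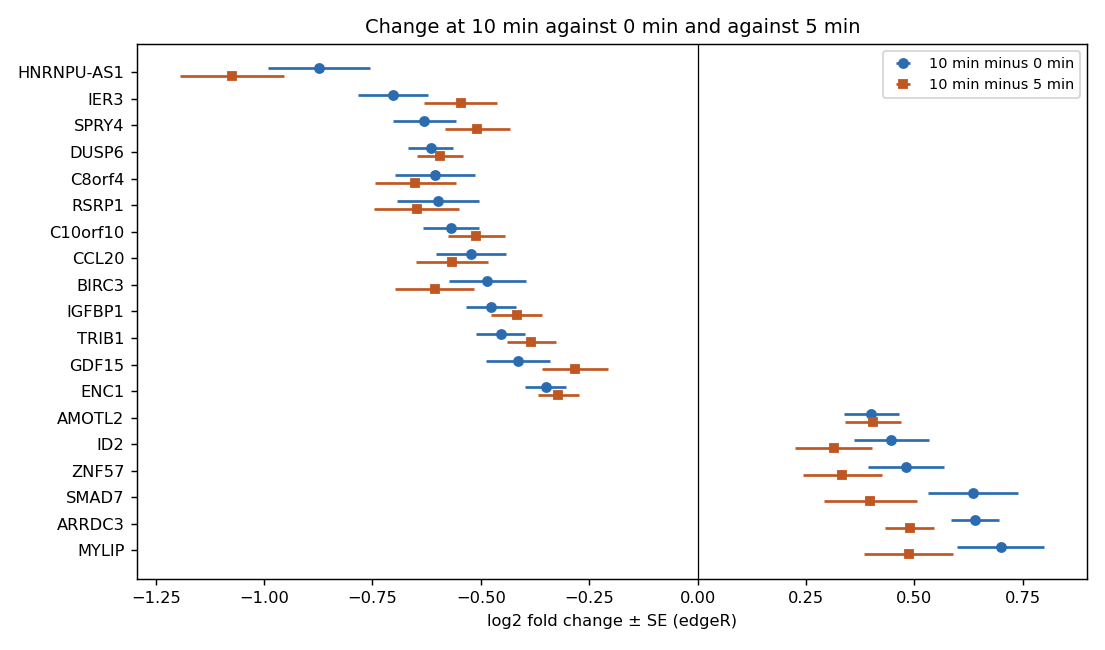
Log2 fold change of the 19 called genes at 10 min against 0 min (blue circles) and against 5 min (orange squares), with standard errors from the model of 10 libraries. The points of each gene fall on the same side of 0; the 2 comparisons share the 10 min libraries.

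At 30 min the 13 genes were still lower than at 0 min and the 6 still higher, and 16 of the 19 were called, against 0.332% of all genes. CCL20, BIRC3 and GDF15 were not called, at -0.23, -0.23 and -0.33. Between 30 and 10 min 0 of the 19 were called by edgeR, DESeq2 or limma and 5 had an unadjusted p under 0.05 in edgeR, a comparison in which 1 gene was called (0.00722%), EGR1. At 240 min, when 41% of all genes were called, 4 of the 13 were called lower (DUSP6, RSRP1, C10orf10, IGFBP1) and 5 higher than at 0 min (HNRNPU-AS1, IER3, C8orf4, BIRC3, TRIB1). RSRP1 stood at 8.15 and 9.41 CPM at 240 min and IER3 at 51.8 and 59.0 CPM. Of the 6 that rose, 4 were called higher at 240 min, MYLIP was back at 10.4 and 10.6 CPM, and ARRDC3 was called lower, at 30.9 and 32.4 CPM, a change of -0.90 ± 0.06 (adjusted p = 3.1e-09, edgeR's quasi-likelihood test). The comparisons at 5, 30 and 240 min share the 0 min libraries with the one at 10 min.

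**Figure D5:**
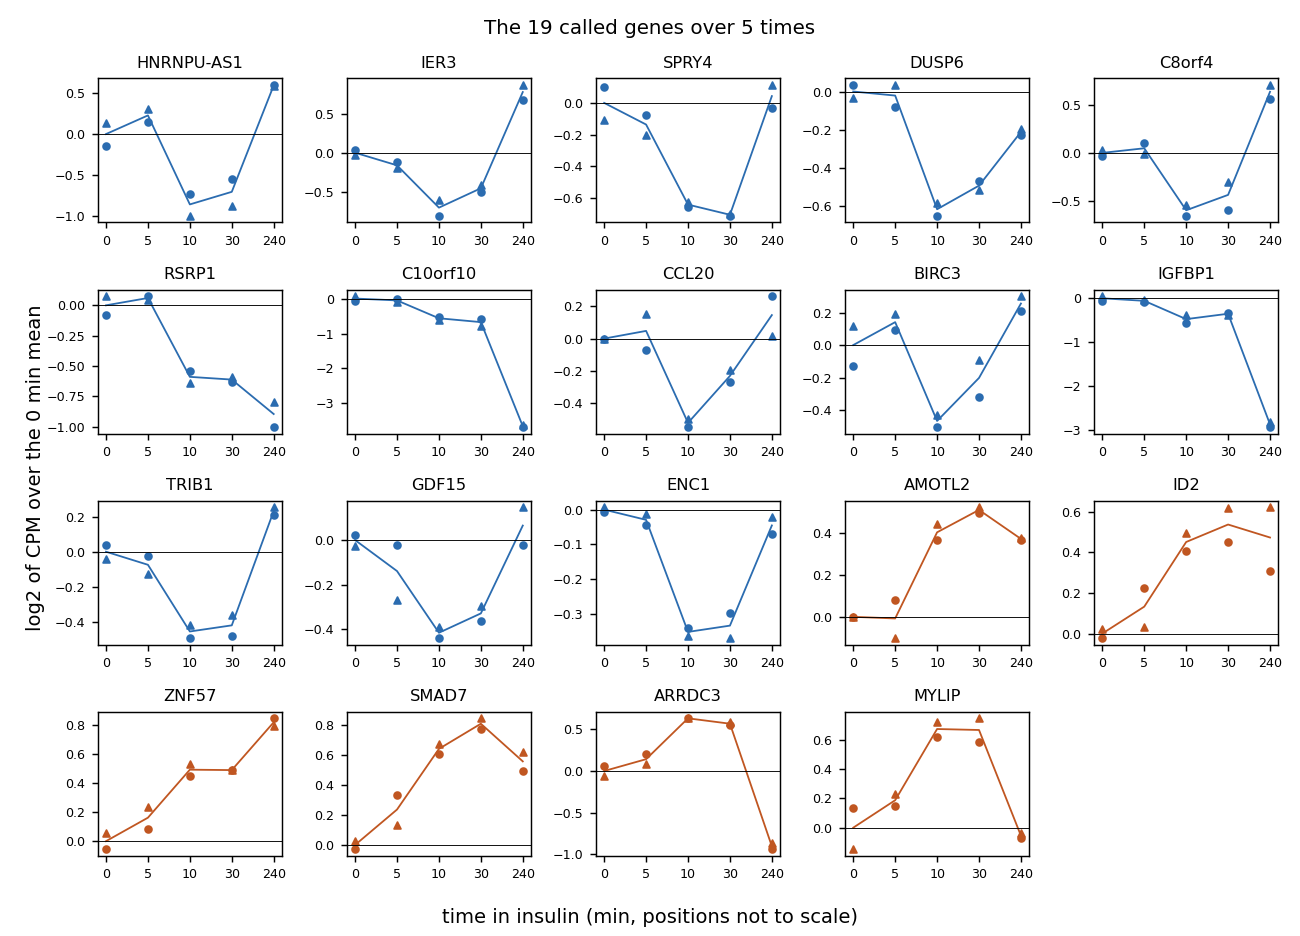
Log2 of CPM over the 0 min mean for each of the 19 called genes at 0, 5, 10, 30 and 240 min (positions not to scale), with circles for replicate 1, triangles for replicate 2 and lines through the means; genes lower at 10 min are blue and genes higher are orange. C10orf10, IGFBP1 and RSRP1 are lowest at 240 min, IER3, C8orf4 and HNRNPU-AS1 end above 0 min, and ARRDC3 ends below it.

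A model of only the 4 libraries at 0 and 10 min called 40 of 13470 genes (0.297%), 28 lower (0.208%) and 12 higher (0.0891%), among them all 19. Of the 21 further genes, 15 were lower and 6 higher. Among those lower were CXCL8, a chemokine that attracts neutrophils, from 10.1 and 13.0 CPM to 7.03 and 7.49 CPM (-0.71, adjusted p = 0.0081), and NR0B2, a nuclear receptor that represses bile acid synthesis, from 33.2 and 32.5 CPM to 26.2 and 24.5 CPM (-0.37, adjusted p = 0.011, edgeR's quasi-likelihood test for both). ZSWIM3, DLK1, ELF3, FILIP1L, BPIFB2 and ZFX, also lower, had values from -0.31 to -0.57 in this model. Among those higher were ZNF367 at 0.50, ID1 at 0.44, the glucose transporter SLC2A3 at 0.33 and the cold-inducible RBM3 at 0.20. With 1 library left out of the model of 10 libraries, CXCL8 was called only without 0 min replicate 1 (-0.84) and stood at -0.48 without 0 min replicate 2, and ID1 was called only without 0 min replicate 2 (0.62). The other genes named in this paragraph were called in none of these 4 fits, and SLC2A3 stood at 0.17 without 10 min replicate 2. MIR6087, a short locus on the X chromosome, varied widely, with 660 and 1641 CPM in the replicates at 5 min, 843 and 613 CPM at 0 min and 417 and 243 CPM at 10 min. For this gene reads of near-identical sequence elsewhere could be counted, so its value is uncertain.

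The single IR immunoprecipitation library had peaks near few of these genes. A deposited peak lay within the gene or 5 kb of it for 3 of the 13 genes that fell (23.1%) and 0 of the 6 that rose, against 15.7% of all genes tested. DUSP6 had a peak at chr12:89747433-89748008, GDF15 at chr19:18496510-18496897, and CCL20 had peaks at chr2:228678127-228678582 and chr2:228683538-228683977 (hg19). The share among the genes that fell was near that of all genes, and the library had no replicate.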

How the data were processed

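RNA-seq counts and TPM values of 10 HepG2 libraries and a peak table of 1 IR ChIP-seq library were analysed. The authors trimmed single-end reads with Trim Galore 0.6.4, aligned them to hg19 with STAR 2.6.1d, marked duplicates, and deposited raw counts per gene from featureCounts 1.6.4, counted as reverse-stranded. The authors also deposited StringTie abundances in TPM, which divide by transcript length. The deposited peak table holds MACS2 2.2.7.1 peaks with a score, of which only positions were used here. The library protocol of the labels, which names a DNA kit, differs from the study's description of the RNA-seq.

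Spike-in RNA (92 ERCC rows that name no gene, 1.59% to 2.36% of a library) was excluded before normalization and testing, and 0 columns of sample values went unmapped. Counts were fitted with edgeR 4.0.16 in R 4.3.3 (TMM, filterByExpr by time, quasi-likelihood test, two-sided, no replicate block), and each SE is the absolute fold change over the root of its F value. Adjusted p-values are Benjamini-Hochberg over all genes tested, with a threshold of 0.05. DESeq2 1.42.0, limma 3.58.1 on log2(TPM + 1) and the other alternatives are given in the closing section. The test was tested on simulated data.

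Named were all called genes, then up to 10 falls and 10 rises called only in the model of 4 libraries with a mean CPM of at least 5 and groups that do not overlap, and members of the gene lists. Members and lists were chosen with earlier results of these data known. Genes called higher in the model of 4 libraries but under this CPM were not named, and some items that the rule names are not reported here. Gene span, exons and 3′ UTRs were read from 1 transcript a gene of GENCODE v44 lifted to GRCh37, and promoters from RefSeq on GRCh38.p14.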

Additional observations from a re-analysis of the deposited data

Results flagged for a closer look

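EGR1 was the only gene named here that was called between 10 and 30 min. Its level was 25.8 and 20.5 CPM at 0 min, 14.5 and 15.4 CPM at 10 min and 47.4 and 34.3 CPM at 30 min, so the change from 0 min was -0.61 at 10 min and 0.86 at 30 min on the log2 scale. The difference between the 2 times was tested by the contrast of 30 min with 10 min, which was added after the values were seen. It was 1.47 ± 0.13 (SE) with an adjusted p of 7.5e-06 in edgeR's quasi-likelihood test, and 10 of 13 alternatives called it. CXCL8 had 0.83 ± 0.16 in the same contrast and was not called (adjusted p = 0.23, edgeR's quasi-likelihood test).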

How the results depend on the processing

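The 19 calls at 10 min against 0 min became 17 to 26 with DESeq2, a minimum of 10 counts, RLE or upper-quartile normalization and thinning to the smallest library. The replicate block gave 21 and ERCC scaling 20. Of the 20 with ERCC scaling, 11 were among the 19 and 0 were higher at 10 min. The number of calls rose to 74 without a filter, 40 with only the libraries compared and 43 with the likelihood ratio test. It dropped to 0 with limma on log2(TPM + 1) (665 at an unadjusted p under 0.05) and 3 with log2(TPM + 0.1). At a mean TPM of at least 1 it was 0 (634 at an unadjusted p under 0.05). Leaving out 1 library gave 9 to 20 calls: 20 without 0 min replicate 1, 12 without 0 min replicate 2, 11 without 10 min replicate 1 and 9 without 10 min replicate 2. DUSP6, SPRY4, IER3, C10orf10, IGFBP1, TRIB1 and ARRDC3 were called in all 4 of these fits, and GDF15, ID2, SMAD7 and ZNF57 in 0. All 19 were called with DESeq2, without a filter, with RLE and upper-quartile normalization, with only the libraries compared, with the replicate block and with the likelihood ratio test, and the cause of the losses in limma was not tested.

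The 36 calls against 5 min became 58 with DESeq2, 281 without a filter, 9 with ERCC scaling, 232 with only the libraries compared, 69 with the replicate block, 169 with the likelihood ratio test, 7, 3 and 0 in the limma fits in the same order (1376 at an unadjusted p under 0.05 in the last), and 8 to 76 with 1 library left out. The difference of replicate 2 from replicate 1 correlated over genes at -0.35 to 0.32 between times. It was 0.32 between 10 and 30 min and -0.11 between 0 and 10 min. The signs were mixed, so the numbers were not used to pair the samples in the main model. With the 0 min numbers crossed, a choice made after seeing the data, the replicate block gave 21 calls.

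ERCC scaling turned SLC2A3 (-0.018) and RBM3 (-0.13) negative. Without 10 min replicate 1, chosen after seeing the data, it called 11374 genes and turned AMOTL2 (-0.12), ID2 (-0.070), ZNF57 (-0.034), ID1 (-0.13), SLC2A3 (-0.092) and RBM3 (-0.35) negative, with a median of -0.57 over all genes. Without 10 min replicate 2 it called 20, with a median of -0.12.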

Other observations

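Against 5 min, 22 genes were called that were not among the 19. Those given below were picked with their values in view, and their change from 0 min did not pass the test. Of the 22, 4 were ZNF genes, all lower, which is 0.899% of the 445 tested against 0.26% of all genes called. These were ZNF264 (-0.48 against 5 min, -0.11 against 0 min), ZNF780B (-0.45 and -0.14), ZNF626 (-0.70 and -0.48) and ZNF189 (-0.30 and -0.12). MALAT1, a long RNA retained in the nucleus, had -0.43 against 5 min and -0.12 against 0 min. Across the 445 ZNF genes tested the median was -0.12 at 10 min against 5 min, 0.10 at 5 min against 0 min and -0.04 at 10 min against 0 min. With 5 min replicate 2 left out 11 genes were called against 5 min, and with 5 min replicate 1 left out 76, and the part of these libraries in the pattern was not tested.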
